A study of Rattus norvegicus with 18 samples.

Results

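Bladder mucosa of rats with a spinal cord injury (SCI) was compared with bladder mucosa of uninjured rats by sequencing of total RNA. The comparison used 6 of the 18 libraries of the study, 3 of mucosa from injured rats given vehicle (SCI-vehicle) and 3 of mucosa from uninjured rats (Control). The libraries of each group were taken by their labels. All samples were labelled as wild type (WT), and the rats were male Sprague Dawley rats. The SCI-vehicle rats underwent a complete transection of the spinal cord at T8 at 6 to 7 weeks of age. They were then injected intraperitoneally each day for 8 weeks with vehicle, which was 12 mM sodium bicarbonate at pH 9.2, and tissue was taken 8 weeks after the injury. The Control rats were age-matched and carried the treatment label None, so the transection and the vehicle injections cannot be told apart here. The remaining libraries were 3 of mucosa from injured rats given inosine at 225 mg/kg per day (SCI-inosine) and 9 of detrusor, the smooth muscle of the wall, from the same 3 groups. The SCI-inosine rats had the same transection at T8 at 6 to 7 weeks of age and were injected intraperitoneally each day for 8 weeks. The labels do not say whether the mucosa and the detrusor of a group came from the same rats.

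The mucosa consists of the urothelium, a layered epithelium that seals the bladder wall against urine, and the lamina propria beneath it, which holds fibroblasts, blood vessels, lymphatic vessels and nerve endings. The urothelium is also a sensory tissue, which releases transmitters when it is stretched. Cutting the cord above the segments that serve the bladder removes the control that the brain has over voiding. A spinal reflex then takes over after a period without contraction, and the bladder contracts against a sphincter that does not relax.

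The total count per library, the number of reads assigned to genes, ranged from 4475878 to 5632324 in Control mucosa (median 4663745) and from 3787910 to 4973121 in SCI-vehicle mucosa (median 4174263). The groups overlapped in this measure. The biological coefficient of variation, the spread of a gene between samples of a group beyond counting error, was 19.99% in mucosa. Genes were listed by Ensembl rat identifier only, and no source used here names them. The label of the tissue could therefore not be checked by named marker genes. Libraries were placed by their distance to detrusor instead. This shows only whether libraries of the same label lie together, since the scale itself is set by labelled SCI-inosine libraries. On a scale where the mean of SCI-inosine mucosa is 0% and the mean of SCI-inosine detrusor is 100%, set by the 238 abundant genes that were over 4-fold higher in that detrusor, the 9 mucosa libraries stood between -9.54% and 8.81%. The 9 detrusor libraries stood between 82.2% and 133%. The 3 Control mucosa libraries stood at 1.90%, -9.54% and -8.40% and the 3 SCI-vehicle mucosa libraries at 0.776%, -5.07% and -8.00%, so the groups overlapped (exact two-sided permutation test, p = 0.7, adjusted p = 0.7 over 6 measures of the libraries). With 3 libraries against 3, an exact test cannot give a p below 0.1.

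The first question was which genes of the mucosa differ after injury. No gene of the 15740 tested passed an adjusted p-value under 0.05 in edgeR's quasi-likelihood test (0 genes, 0% of those tested), and the smallest adjusted p-value was 0.129. The threshold was then an unadjusted p-value under 0.05, at which 1611 genes (10.2%) were called. Of these, 738 (4.69%) were higher and 873 (5.55%) were lower in SCI-vehicle. "Called higher" and "called lower" below refer to this unadjusted threshold, which genes can pass without a difference between the groups. All SCI-vehicle libraries lay above or all lay below the Control libraries for 2477 genes (15.7%), 1155 of them higher (7.34%) and 1322 lower (8.4%). Such a separation has a p of 0.1 for a single gene in an exact two-sided permutation test, so many genes can show it without a difference between the groups. Of the 1611 called genes, 1307 (81.1%) had no overlap. The same libraries gave both measures, so this share is not independent support.

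Other tests did call genes after adjustment. DESeq2 called 81 genes with an adjusted p-value under 0.05 (0.515%), 23 higher and 58 lower, and edgeR's likelihood ratio test called 103 (0.654%), 37 higher and 66 lower. Of these, 70 genes were called by both. With the position of each library toward detrusor as a covariate, the quasi-likelihood test called 20 genes, 8 higher and 12 lower. All 81 genes of DESeq2 were also among the 1611 called genes, and all 81 had no overlap between the groups. The same libraries gave all of these results, so this is not independent support for the 81 genes. The median log2 fold change of the 81 genes was 0.91 for those higher and -0.90 for those lower.

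The 4 genes described here are the 2 with the smallest p in each direction, and in none of them did the groups overlap. A choice by the smallest p in these same libraries favours genes without overlap. Of the genes higher in SCI-vehicle, ENSRNOG00000033575 stood at 38.1, 36.8 and 35.1 CPM, the count scaled to the size of the library, in the 3 Control libraries and at 64.9, 64.0 and 64.0 CPM in the 3 SCI-vehicle libraries. The lowest SCI-vehicle value lay well above the highest Control value. Its log2 fold change was 0.81 (standard error 0.10), or 1.75-fold, with an adjusted p of 0.129 in edgeR's quasi-likelihood test (here "edgeR") and of 5.13e-06 by DESeq2. The 3 SCI-inosine libraries were at 44.5, 45.3 and 46.9 CPM, above all of Control and below all of SCI-vehicle. This gene was among the genes enriched in mucosa over detrusor, which are described further on.

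ENSRNOG00000059500 stood at 33.2, 41.5 and 51.7 CPM in Control and at 145, 98.7 and 102 CPM in SCI-vehicle. The groups did not overlap, and SCI-vehicle replicate 1 was the highest of the 6 libraries. The log2 fold change was 1.45 (standard error 0.23), or 2.73-fold, with an adjusted p of 0.191 in edgeR and of 2.82e-05 by DESeq2. In SCI-inosine mucosa it was at 119, 75.7 and 81.8 CPM, a range that overlapped with SCI-vehicle and not with Control.

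Of the genes lower in SCI-vehicle, ENSRNOG00000014837 stood at 33.9, 37.7 and 24.1 CPM in Control and at 10.8, 14.1 and 11.7 CPM in SCI-vehicle. Every SCI-vehicle library was below the lowest Control library. The log2 fold change was -1.38 (standard error 0.19), a level of 38.4% of Control, with an adjusted p of 0.191 in edgeR and of 2.82e-05 by DESeq2. The SCI-inosine libraries were at 24.8, 22.8 and 23.1 CPM, above all of SCI-vehicle. Replicate 1 of SCI-inosine lay just above the lowest Control library, and the other SCI-inosine libraries lay below all of Control.

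The fourth gene, ENSRNOG00000002746, was the most abundant of these and stood at 466, 448 and 464 CPM in Control and at 305, 261 and 272 CPM in SCI-vehicle. Both groups were narrow, with no overlap. The log2 fold change was -0.72 (standard error 0.11), a level of 60.8% of Control, with an adjusted p of 0.191 in edgeR and of 1.82e-09 by DESeq2. In SCI-inosine mucosa the values were 393, 396 and 399 CPM, above all SCI-vehicle and below all Control libraries. These 4 genes were picked as the extremes of the comparison, and their values are given as a description.

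**Figure D1:**
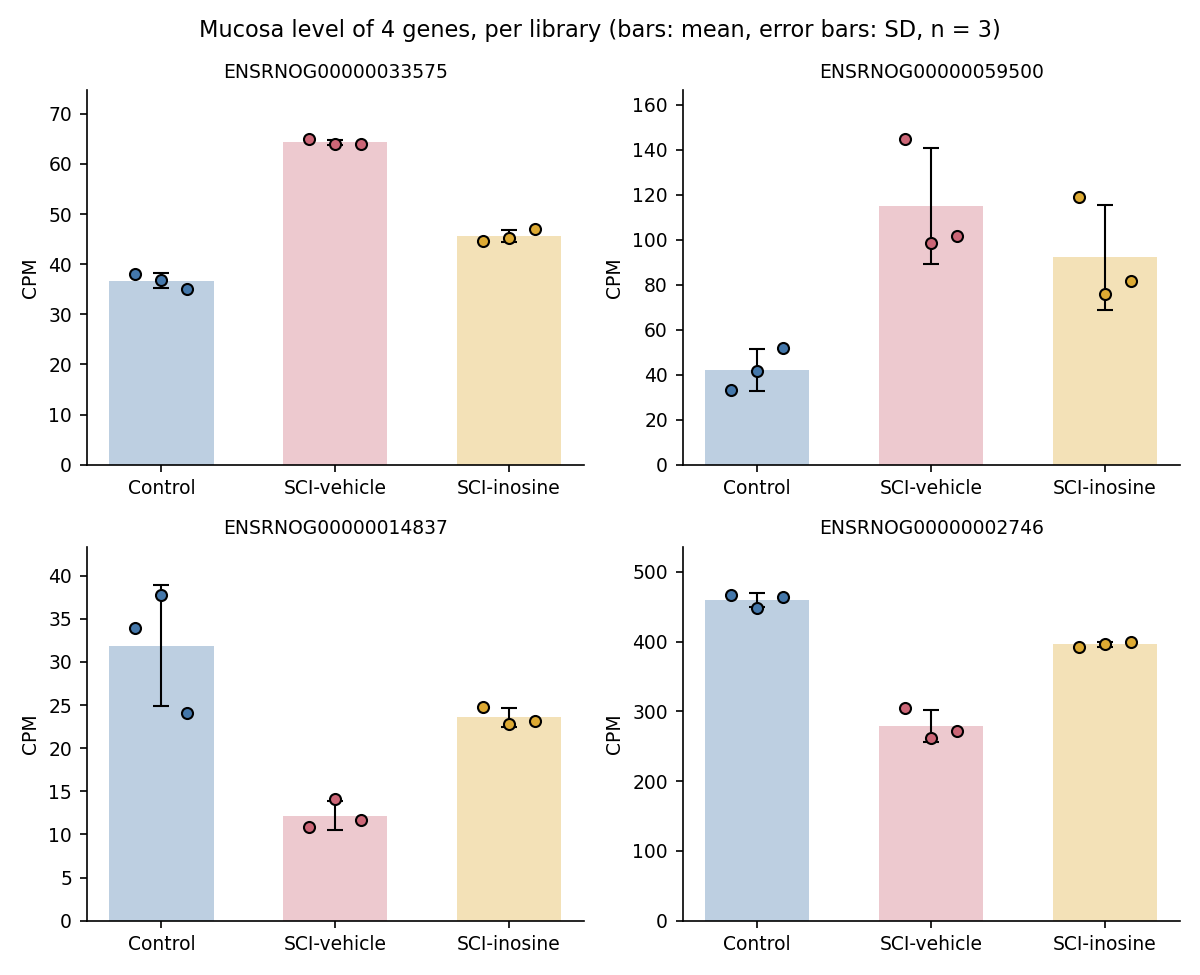
Level in CPM, on axes that start at 0, of 4 genes in the mucosa libraries of Control, SCI-vehicle and SCI-inosine. Points are libraries, bars are means and error bars are SD (n = 3). The 2 upper genes were higher and the 2 lower genes lower in all 3 SCI-vehicle libraries than in any Control library.

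The differences of the called genes were mostly small. The median log2 fold change was 0.67 for genes called higher and -0.60 for genes called lower, and 353 of the 1611 genes differed by more than 2-fold, 172 higher and 181 lower. Among the 10 genes with the smallest p in each direction and no overlap, log2 fold changes ran from 0.59 to 1.74 in those higher and from -1.38 to -0.55 in those lower. No gene was at 0 in all 3 libraries of one group and above 1 CPM in all 3 of the other (0 genes in either direction). Below 1 CPM in every Control library and above 1 CPM in every SCI-vehicle library were 30 genes, and 30 genes showed the reverse.

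The share of genes called was larger at higher levels. Split by mean level into 4 bins of 3935 genes, the lowest bin ran from 0.463 to 5.64 CPM. In it 7.17% of genes were called, and their median log2 fold change without regard to sign was 1.41. In the next 2 bins 9.66% and 11.2% were called. In the highest bin, from 60.3 to 16586 CPM, 12.9% were called with a median of 0.49, so smaller differences were called where counts were high. Genes called lower made up 61.1% of the called genes in this bin (310 of 507), against 52.3%, 47.9% and 53.2% in the bins below it, from the third to the first.

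**Figure D2:**
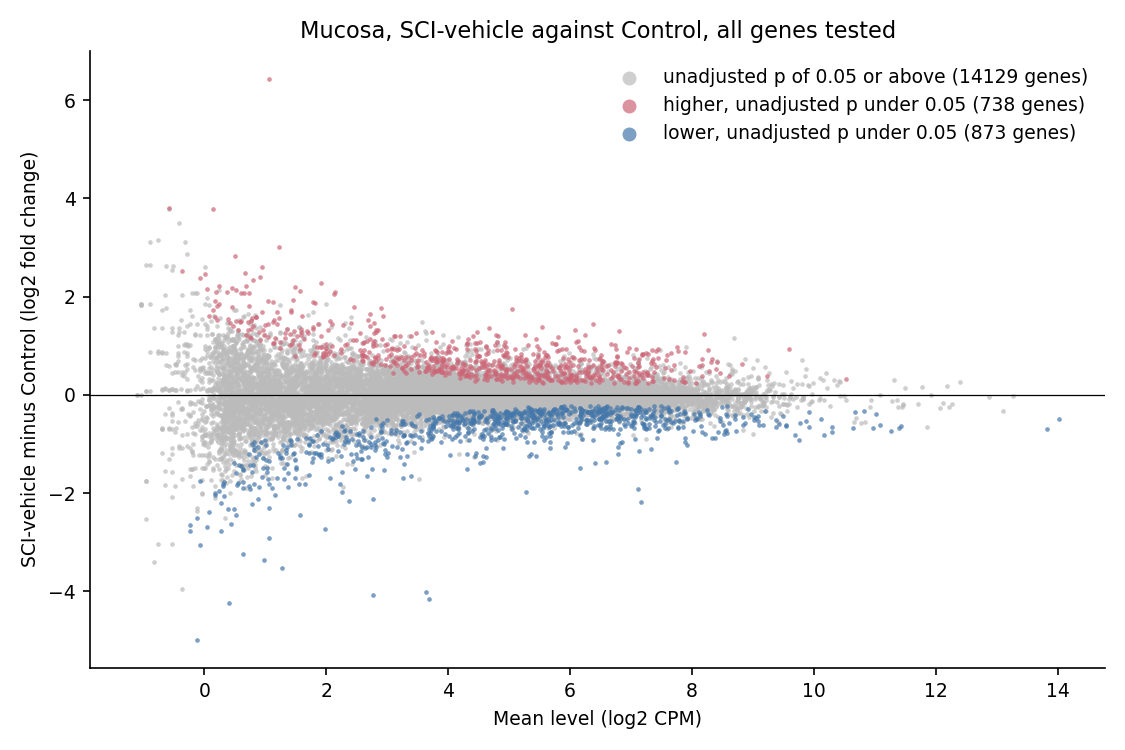
Log2 fold change of SCI-vehicle over Control mucosa against the mean level in log2 CPM for the 15740 genes tested, with the 738 genes called higher in red and the 873 called lower in blue. Called genes of high level lie close to 0, and those called lower reach the highest levels plotted.

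The most abundant transcripts took up less of the SCI-vehicle libraries. For each library its own 10 genes with the most reads were taken, which need not be the same genes in every library. They held 8.77% to 9.24% of all counts in Control and 6.71% to 8.45% in SCI-vehicle, with no overlap (exact two-sided permutation test, p = 0.1, adjusted p = 0.3 over 6 measures). In SCI-inosine mucosa the 10 genes of each library held 8.39% to 8.59%. When the genes were ranked in the SCI-inosine libraries, which are not in the comparison, 16 of the 20 most abundant genes had a lower fitted level in SCI-vehicle than in Control, 4 of them were called lower and 0 were called higher. Of the 100 most abundant genes, 71 were at a lower fitted level, 21 were called lower and 1 was called higher. Of all genes tested, 50.5% were at a lower fitted level, 5.55% were called lower and 4.69% called higher.

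The number of called genes depended on single libraries. Leaving out Control replicate 2 left 919 called genes, and leaving out SCI-vehicle replicate 2 left 949. Leaving out SCI-vehicle replicate 3 gave 2313 called genes, and leaving out Control replicate 1 gave 1959. No gene passed the adjusted threshold in a fit lacking 1 of the 6 libraries (0 genes in each of the 6 edgeR fits). Of the 1611 genes, 480 (29.8%) were called in the same direction whichever of the 6 libraries was left out, 194 higher and 286 lower. All 81 genes called by DESeq2 after adjustment were among them. DESeq2 used the same libraries, so this is not independent support.

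**Figure D3:**
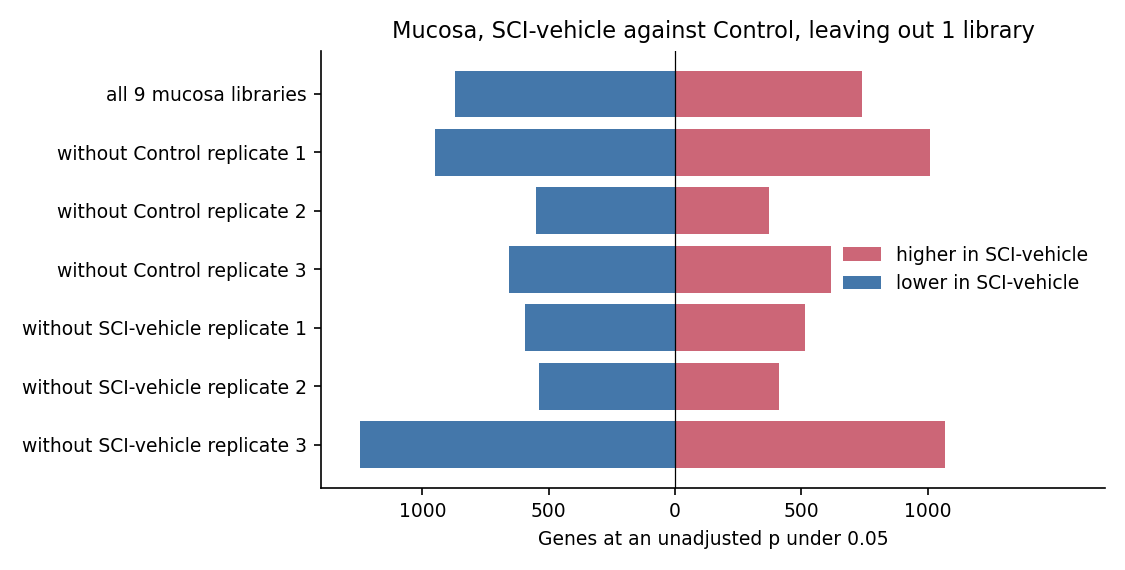
Number of genes called with an unadjusted p-value under 0.05 (edgeR) in the fit of all 9 mucosa libraries and in fits without 1 of the 6 libraries compared. Bars to the right are genes higher and bars to the left genes lower in SCI-vehicle. The fits range from 919 genes without Control replicate 2 to 2313 without SCI-vehicle replicate 3.

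Over all genes, libraries of different groups lay nearly as close as libraries of the same group. The root mean square difference in log2 CPM over the 15740 genes was 0.577 ± 0.081 between Control libraries (SD, n = 3 pairs), 0.567 ± 0.073 between SCI-vehicle libraries (SD, n = 3 pairs) and 0.609 ± 0.077 between a Control and a SCI-vehicle library (SD, n = 9 pairs). The distances share libraries, so the pairs are not independent. The library closest to Control replicate 1 was SCI-vehicle replicate 1, and the library closest to SCI-vehicle replicate 3 was SCI-inosine replicate 2. The main direction of variation within the groups held 40.4% of the within-group variance and had Control replicate 1, SCI-vehicle replicates 1 and 2 and SCI-inosine replicate 1 on one side and the other 5 libraries on the other. Positions on it are deviations from the mean of each group, so they say nothing about a separation of the groups.

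The second question was how the called genes are distributed between the layers of the bladder wall. Genes were put in classes from SCI-inosine mucosa and SCI-inosine detrusor, whose libraries are not compared here. With a difference over 4-fold and an adjusted p-value under 0.05 (edgeR), 1301 genes were mucosa-enriched (8.27%), 564 were detrusor-enriched (3.58%) and 13875 were in neither class. Mucosa-enriched genes were called higher far more often than lower. Of the 1301, 246 were called higher (18.9% of the class, against 4.69% of all genes) and 53 were called lower (4.07% of the class, against 5.55%). They made up 33.3% of the 738 genes called higher (95% Wilson interval 30.0% to 36.8%, which covers counting error only and takes genes as independent) and 6.07% of the 873 called lower. Their median log2 fold change was 0.29, and that of the genes in neither class was -0.01.

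The genes called lower were spread over the classes from the SCI-inosine libraries much as all genes were. Of the 13875 genes in neither class, 788 were called lower (5.68%) and 481 higher (3.47%), and these 788 made up 90.3% of the genes called lower, where the class held 88.2% of all genes. Of the 564 detrusor-enriched genes, 11 were called higher (1.95%, against 4.69% of all genes) and 32 lower (5.67%, against 5.55% of all genes). Their median log2 fold change of 0.07 changed sign with single libraries, from -0.16 without SCI-vehicle replicate 1 to 0.39 without Control replicate 1. Among the 10 genes with the smallest p in each direction and no overlap, 7 of those higher and 0 of those lower were mucosa-enriched.

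Library by library, the median mucosa-enriched gene stood 0.12, -0.17 and 0.07 log2 units from its Control mean in the 3 Control libraries and 0.27, 0.39 and 0.22 in the 3 SCI-vehicle libraries. The SCI-vehicle libraries were all above the Control libraries (exact two-sided permutation test, p = 0.1, adjusted p = 0.3 over 6 measures). In the SCI-inosine libraries it stood at 0.31, 0.04 and 0.10, which overlapped with both. The median detrusor-enriched gene stood at 0.47, -0.30 and -0.17 in Control and at 0.40, 0.03 and -0.17 in SCI-vehicle, so these groups overlapped (exact two-sided permutation test, p = 0.7, adjusted p = 0.7 over 6 measures). In whole tissue, more cells of a type and more RNA per cell cannot be told apart.

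**Figure D4:**
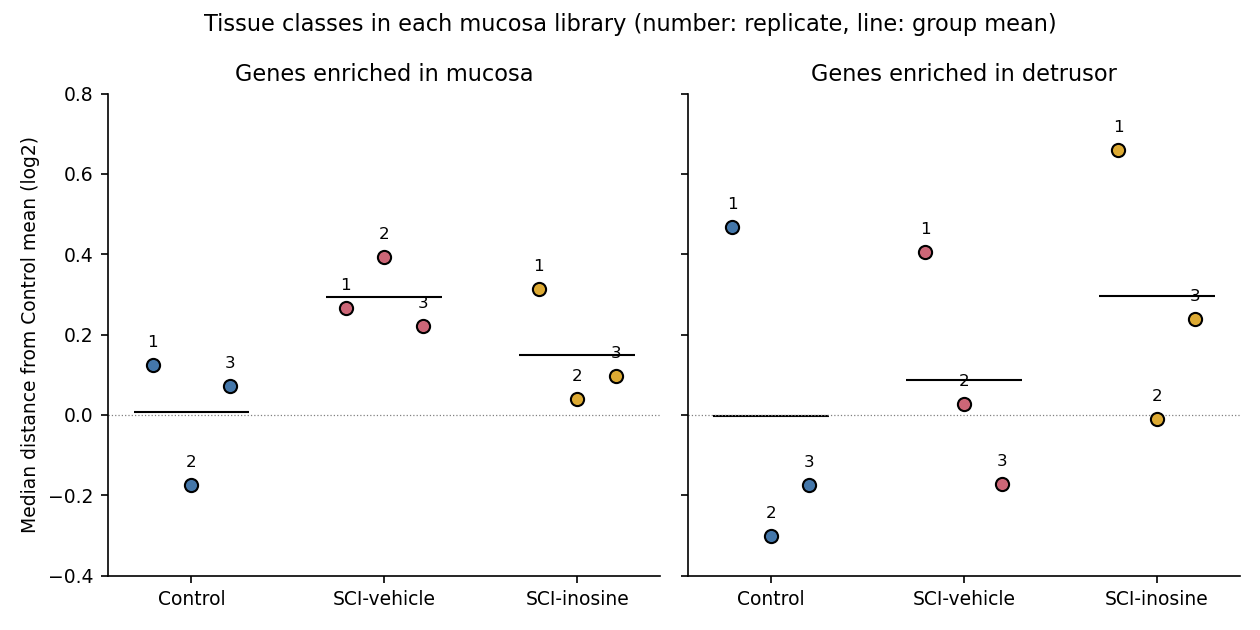
Median distance from the Control mean, in log2 units, of the 1301 mucosa-enriched genes on the left and the 564 detrusor-enriched genes on the right, in each mucosa library. Points are libraries, numbers are replicates and lines are group means (n = 3). For mucosa-enriched genes the 3 SCI-vehicle libraries, from 0.22 to 0.39, lie above the 3 Control libraries, whereas for detrusor-enriched genes the groups overlap.

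The SCI-inosine libraries are of injured rats, so a gene that injury raised in mucosa could pass the 4-fold limit for that reason. With classes taken from Control mucosa and Control detrusor, 246 of 1526 mucosa-enriched genes were called higher (16.1%) and 86 lower (5.64%, against 5.55% of all genes), and the median log2 fold change of the class was 0.10. Of the 768 detrusor-enriched genes in these classes, 16 were called higher (2.08%) and 21 lower (2.73%, against 5.55% of all genes). Their median log2 fold change was 0.11, so with these classes the median of the mucosa-enriched genes was not the higher. These classes use the Control libraries that are also compared. With an 8-fold limit on the SCI-inosine libraries, 142 of 696 mucosa-enriched genes were called higher (20.4%) and 26 lower (3.74%), with a median of 0.38. At that limit 3 of 187 detrusor-enriched genes were called higher (1.60%) and 7 lower (3.74%). The median log2 fold change of these 187 genes was 0.20. The share of the 1301 mucosa-enriched genes that were called higher was 8.22% without Control replicate 2 (2.35% of all genes in that fit), 9.38% without SCI-vehicle replicate 2 (2.61%) and 27.6% without Control replicate 1 (6.40%). It was 3.77% with all 18 libraries in one model (2.82% of all genes). The share of mucosa-enriched genes among those called higher was 11.0% when all 18 libraries shared an estimate of the spread, against 8.27% of all genes.

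The third question was whether the injury had the same effect in mucosa and in detrusor. The comparison of SCI-vehicle with Control in detrusor used other libraries. Genes called higher in mucosa also tended to be at a higher fitted level in injured detrusor, 527 of 738 (71.4%, against 51.2% of all genes tested). In detrusor, 156 of them were called higher (21.1%) and 15 lower (2.03%), where 13% of all genes were called, 7.55% higher and 5.42% lower. One library moved this most. Without detrusor SCI-vehicle replicate 1, 54.3% of the 738 genes were at a higher fitted level in injured detrusor (48.5% of all genes). In that fit 43 were called higher (5.83%, against 5.59% of all genes) and 28 lower (3.79%, against 4.29%), close to the shares over all genes. On the scale between mucosa and detrusor given above, that library stood at 82.2%, and the other detrusor SCI-vehicle libraries at 110.4% and 105.5%. Among the mucosa-enriched genes called higher in mucosa, the share at a higher level in detrusor was 92.3% with this library and 63.0% without it, against 73.9% and 52.9% of all 1301 mucosa-enriched genes. Among the 492 other genes called higher in mucosa, it was 61.0% with this library and 50% without it.

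The genes called lower in mucosa went the other way in detrusor more often than all genes did. Of the 873, 521 (59.7%) were at a higher fitted level in injured detrusor, with 150 called higher (17.2%, against 7.55% of all genes) and 59 called lower (6.76%, against 5.42%) there. Leaving out each of the 6 detrusor libraries in turn gave 55.7% to 64.9%. Without detrusor SCI-vehicle replicate 1 it was 64.4%, with 169 called higher (19.4%, against 5.59% of all genes) and 39 lower (4.47%, against 4.29%).

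The difference between the injury effects was tested for each gene in one model of all 18 libraries. With edgeR, an adjusted p-value under 0.05 was reached by 19 genes (0.121% of those tested). Of these, 18 were called lower in mucosa and higher in detrusor, and 1 was called higher in mucosa and lower in detrusor. The median log2 fold change of the 19 genes was -0.63 in mucosa and 0.88 in detrusor. Their number was 1 without any one of mucosa Control replicate 2, mucosa SCI-vehicle replicate 1, detrusor Control replicate 1, detrusor Control replicate 2 or detrusor SCI-vehicle replicate 3. It was 2, 3, 3, 5 and 9 without mucosa Control replicate 3, mucosa Control replicate 1, mucosa SCI-vehicle replicate 3, detrusor SCI-vehicle replicate 2 and mucosa SCI-vehicle replicate 2. It was 44 without detrusor SCI-vehicle replicate 1 and 95 without detrusor Control replicate 3. The test of the difference gave 1731 genes (11% of those tested) at the unadjusted threshold, with a lower effect in mucosa for 1025 and a higher one for 706.

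Of the 4 genes above, ENSRNOG00000014837 was among the 19. In detrusor it stood at 51.9, 48.4 and 76.9 CPM in Control and at 59.4, 106 and 101 CPM in SCI-vehicle. These ranges overlapped. The injury effect in mucosa was lower than that in detrusor by a log2 difference of -1.95 (edgeR adjusted p = 0.0485, standard error 0.35).

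ENSRNOG00000002746 stood at 799, 612 and 630 CPM in Control detrusor and at 656, 775 and 829 CPM in SCI-vehicle detrusor, also with overlap. The log2 difference between the effects was -0.84 (adjusted p = 0.162 by the same edgeR test). For ENSRNOG00000059500 it was 0.82 (adjusted p = 0.525) and for ENSRNOG00000033575 -0.32 (adjusted p = 0.906), again by that edgeR test, so none of these 3 genes passed the adjusted threshold (0 of 3). Of them, ENSRNOG00000002746 passed the unadjusted threshold. ENSRNOG00000033575 was at 4.85, 4.96 and 1.75 CPM in Control detrusor and at 21.0, 3.51 and 2.62 CPM in SCI-vehicle detrusor, where the high value belongs to replicate 1.

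**Figure D5:**
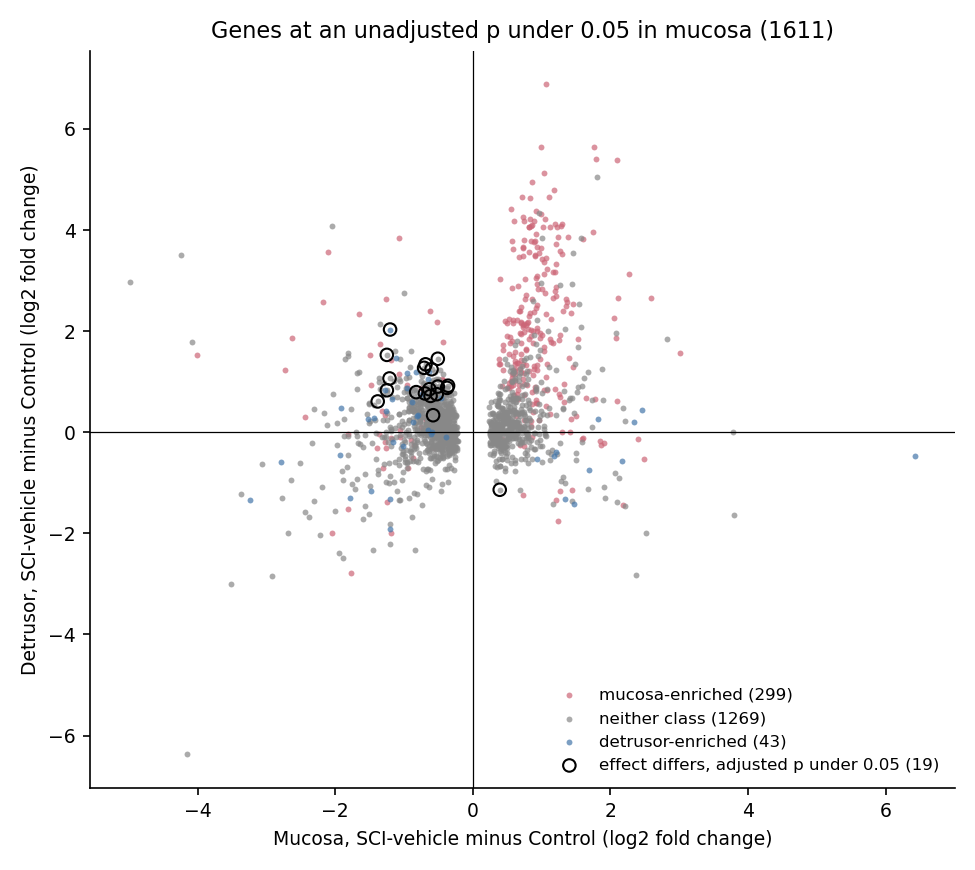
Log2 fold change of SCI-vehicle over Control in detrusor against that in mucosa for the 1611 genes called in mucosa, coloured by tissue class. Circles mark the 19 genes whose effects differed between the tissues at an adjusted p-value under 0.05, of which 18 lie at lower mucosa and higher detrusor values. Most of the mucosa-enriched genes called higher in mucosa lie above 0 in detrusor, 92.3% with all detrusor libraries and 63.0% without detrusor SCI-vehicle replicate 1.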

How the data were processed

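The authors depleted ribosomal RNA from total RNA, made strand-marking libraries, sequenced them paired-end on 2 flow cells and summed the counts. They deposited raw counts on 32754 genes. The submitters' processing notes name Trim Galore 0.6.10, STAR 2.7.10a, SAMtools 1.17, featureCounts 2.0.3 and the build Rnor_6.0. The annotation, the settings and whether counting used strand are not given in the sources used here.

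The 15740 genes exceeding 1 CPM in 3 or more of all 18 libraries were tested with edgeR 4.0.16 in R 4.3.3, by TMM scaling and the two-sided quasi-likelihood test on the counts, with Benjamini-Hochberg adjustment over all genes tested. The 9 mucosa libraries were fitted together. The authors used DESeq2, which served as an alternative (DESeq2 1.42.0). Here DESeq2 gave no adjusted p-value for 922 genes, and the 0.515% above is of all 15740 genes. The scripts were tested on simulated data. Detrusor-enriched genes above 50 CPM set the position of a library between the tissues. The study describes its 3 samples per group as biological replicates. All samples carry the same batch label.

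Comparisons, gene lists and classes were chosen with earlier results of these data known. The rule for single genes took the 2 with the smallest p in each direction. The deposited identifiers were not paired with names (0 matched), so the planned gene lists, cell type markers and promoter motifs were not run.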

Additional observations from a re-analysis of the deposited data

Results flagged for a closer look

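The injury effect differed between mucosa and detrusor for 19 genes by the test of the difference itself (edgeR, adjusted p-value under 0.05). One of the 4 genes described, ENSRNOG00000014837, was among them, with a log2 difference of -1.95 between the effects (edgeR adjusted p = 0.0485, standard error 0.35). Its mucosa level was lower in 3 of 3 SCI-vehicle libraries than in any Control library, but the gene was picked by its small p in mucosa. In detrusor its Control and SCI-vehicle ranges overlapped. The number of genes with different effects ran from 1 to 95 when 1 library was left out.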

How the results depend on the processing

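The 0 genes after adjustment became 81 with DESeq2, 20 with the position toward detrusor as a covariate and 103 with the likelihood ratio test. The 1611 genes at the unadjusted threshold became 992 with all 18 libraries in one model (444 higher and 548 lower), and ranged from 919 to 2313 when a library was left out (370 to 1067 higher, 538 to 1246 lower). With the covariate, 1133 were higher, and with a log2 fold change beyond 0.5 added, 562 were lower. The median over all genes moved by less than 0.1 on the log2 scale in every fit, and DESeq2 size factors gave 775 higher and 828 lower. The genes with different effects in mucosa and detrusor were 19, 183 with DESeq2, 78 with the replicate block, and 1 to 95 without a library. Mucosa-enriched genes among those called higher made up 38.6% with DESeq2, 36.9% with the likelihood ratio test, 11.0% with all 18 libraries, 19.2% with 8-fold classes (4.42% of all genes), and 27.1% to 35.7% without a library. The cause of these shifts was not tested. The 4 single genes kept their direction in all 16 alternative fits run. The same held for every called gene tested in these fits of the same libraries, so it is no support for the 4 genes. Each of the 4 passed the adjusted threshold in 3 of the fits, by DESeq2, the likelihood ratio test and the covariate. Their adjusted p ranged from 5.13e-06 to 0.811 for ENSRNOG00000033575, from 2.82e-05 to 0.606 for ENSRNOG00000059500 and ENSRNOG00000014837, and from 1.82e-09 to 0.606 for ENSRNOG00000002746, by DESeq2 and edgeR. The fits of the detrusor effect without each of its libraries were chosen after seeing the data.

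Samples of Control and SCI-vehicle mucosa with the same replicate number did not deviate together (r = 0.23, -0.26 and -0.06 across genes). With SCI-inosine mucosa of the same number, r was 0.46, 0.30 and 0.01 for Control and 0.20, -0.13 and 0.23 for SCI-vehicle. Between different numbers r ran from -0.41 to 0.38. The signs were mixed, and the numbers were not taken as pairs. With the replicate block, 0 genes passed after adjustment and 1902 at the unadjusted threshold, 934 higher and 968 lower. The alternatives for gene lists, marker lists and promoter motifs were not run, since identifiers were not paired with names. With 3 libraries a group and 3787910 to 5632324 counts each, differences in genes of few counts were the least precise.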
